A study of Arabidopsis thaliana with 6 samples.

Results

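Photosystem I, photosystem II and the chain of proteins that links them are built from subunits of 2 origins, and the 35 genes described here are nuclear genes among them, in Arabidopsis thaliana, the thale cress. The rule lists loci by function and uses no measured value, although earlier results of these data were known when the list was made. It holds 12 genes of photosystem I, 13 of photosystem II and its assembly, 7 of electron carriers, and 3 for subunits of the chloroplast ATP synthase and for CURT1A, a protein that bends thylakoid membranes. Genes of the light-harvesting antenna were not included. All 35 loci were found among the 24434 genes of the table, and all 35 passed the filter of the test, a mean of 1 FPKM or more (fragments scaled by library size and by exon length, so that levels of different genes can be compared), so no member was lost.

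In the thylakoid membrane of the chloroplast, photosystem II takes electrons from water with the help of a manganese cluster shielded by the extrinsic proteins PsbO, PsbP and PsbQ. The electrons pass through the cytochrome b6f complex and plastocyanin to photosystem I, which hands them to ferredoxin on the stromal side, and ferredoxin-NADP reductase uses them to make NADPH. The proton gradient built up on the way drives the ATP synthase. The reaction centre proteins themselves are encoded in the plastid genome, while the small and peripheral subunits are encoded partly by nuclear and partly by plastid genes. Green stems carry this machinery in the chloroplasts of their outer cell layers.

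The study compared stems of plants overexpressing a gene called Bnt07G011994 with wild-type (WT) stems, in the ecotype Columbia. Both genotypes were grown in a greenhouse kept at 22 °C on days of 15 h light and nights of 9 h, until the stems measured some 10 cm. Each sample held the stems of 1 plant, and RNA of 3 overexpressor and 3 WT samples was sequenced. The labels do not say which promoter drove the transgene, whether the overexpressor plants were of 1 line, or at what hour each stem was cut, and the level of the transgene was not analysed here.

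Between 44597288 and 45642240 reads were assigned to genes in each library, and each member was covered by 3109 to 165980 reads in a library. Genes of secondary walls, markers of the stem, were expressed in all 6 libraries, with CESA4, a cellulose synthase subunit, at 266, 195 and 306 FPKM in overexpressor replicates 1, 2 and 3 and at 37.1, 245 and 259 FPKM in WT replicates 1, 2 and 3. Among markers of other cell types, KCS6 of the epidermis had 321, 317 and 281 FPKM in the overexpressor and 184, 372 and 344 FPKM in WT, and SUC2 of the phloem had 127, 134 and 131 FPKM in the overexpressor and 119, 151 and 157 FPKM in WT. FAMA of guard cells stood at 9.58 to 14.0 FPKM over the libraries, the flower marker MS2 at 3.08 to 6.22 FPKM and the seed marker CRA1 at 0 to 1.00 FPKM. WT replicate 1 stood apart: it was the lowest library for all 7 wall and all 5 epidermis genes. It was the highest for all 7 day and evening genes of the circadian clock that were listed (GI, PRR5, PRR7, PRR9, TOC1, ELF4 and PCL1). These clock genes summed to 0.0456, 0.0643 and 0.0506% of the FPKM in the overexpressor libraries and to 0.119, 0.0329 and 0.0312% in the WT libraries. GI, one of these clock genes, had 24.3, 44.2 and 30.9 FPKM in the overexpressor and 94.7, 6.85 and 6.98 FPKM in WT. The most abundant wall gene, FLA11, had 759.6, 486 and 823 FPKM in the overexpressor and 109, 495 and 542 FPKM in WT. TOC1 led the day and evening clock genes with 104 to 155 FPKM and CCA1 the morning ones with 2.51 to 19.8 FPKM, both highest in WT replicate 1. WT replicates 2 and 3 were the closest pair of libraries, differing by 5.70% or less in every member, yet by more than sampling noise (a median of 4.13 sampling SD over the members), and they were counted as separate samples. Values are therefore also given without WT replicate 1.

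The machinery was among the most abundant of the stem. Mean levels over the 6 libraries ran from 86.3 FPKM for PSB28 to 4397 FPKM for PSBR, with a median of 637 FPKM, and 15 members ranked within the top 100 genes of every library. The 35 genes together took 4.97, 4.91 and 4.88% of all FPKM in overexpressor replicates 1, 2 and 3 and 4.97, 4.37 and 4.28% in WT replicates 1, 2 and 3. The overexpressor stems and WT replicate 1 thus stood side by side, above WT replicates 2 and 3. The overexpressor plants were also alike among themselves, with a median coefficient of variation of 5.11% over the members, against 11.7% in WT, where all genes tested had 10.7% in the overexpressor and 15.6% in WT.

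**Figure D1:**
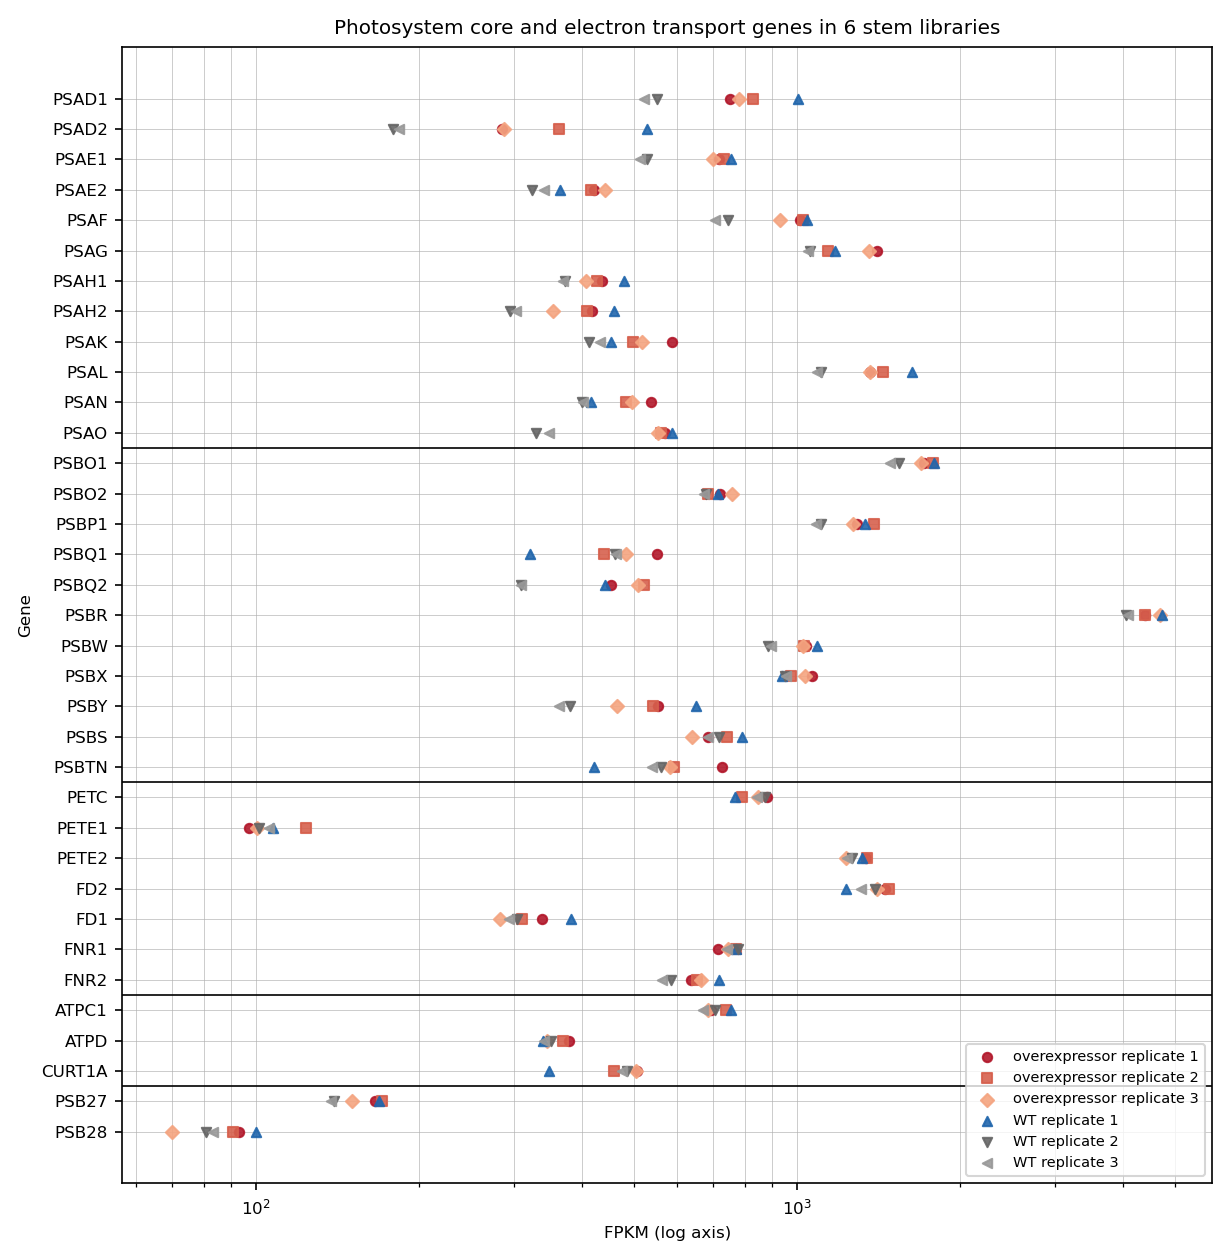
FPKM on a log axis of the 35 genes, 1 row a gene and 1 symbol a library; horizontal lines part, from the top, photosystem I, photosystem II, electron carriers, ATP synthase with CURT1A, and the photosystem II assembly factors. For the photosystem I genes the overexpressor points lie right of WT replicates 2 and 3, while WT replicate 1 lies among or right of them in most.

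Over all 6 libraries no gene of the machinery passed the test. Levels were compared with limma on log2(FPKM + 1), and of 16870 genes 2 had a Benjamini-Hochberg adjusted p under 0.05 (0.0119% of the genes tested), neither of them a member. The smallest adjusted p among the members was 0.805. An unadjusted p under 0.05 was reached by 4 of 35 members, all higher in the overexpressor, where 2.02% of all genes tested were called higher in that way and 5.43% in either direction: PSAE2, PSAN, PSBQ2 and PSAK. The log2 fold change, overexpressor over WT, was above 0 for 30 of 35 members, against 42.3% of all genes, and its median was 0.14 for the members and -0.04 for all genes. In whole stems, a different number of green cells and a different amount of RNA of these genes in each cell cannot be told apart.

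All 3 overexpressor values lay above all 3 WT values for 7 of 35 members, where 4.76% of all genes did so: PSAE2, PSAK and PSAN of photosystem I, PSBQ2, PSBX and PSBTN of photosystem II, and the ferredoxin gene FD2. In no member did the overexpressor lie wholly below WT, as 9.69% of all genes did. Set against WT replicates 2 and 3 alone, the overexpressor values lay above for 24 of 35 members, where 12.3% of all genes did so. Those 24 were 12 of 12 photosystem I genes, 10 of 13 photosystem II genes, 2 of 7 carriers and 0 of the 3 ATP synthase and CURT1A genes. WT replicate 1 exceeded both other WT plants in 27 of 35 members, against 50.6% of all genes, and was the highest of the 6 libraries in 17 of 35, against 42.4% of all genes. It was the lowest in 7 members (PSBQ1, PSBX, PSBTN, PETC, FD2, ATPD and CURT1A), where 31.9% of all genes were lowest there. The part of the clock and wall differences of that plant in these levels was not tested.

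Without WT replicate 1, 23 genes had an adjusted p under 0.05 in limma (0.136% of the genes tested, 0.0948% higher), again with 0 of the 35 members, while 15 members had an unadjusted p under 0.05. All 15 were higher in the overexpressor, against 4.52% of all genes higher and 10.6% in either direction, and 10 of them belonged to photosystem I and 5 to photosystem II. The median log2 fold change of the members was then 0.19, against -0.02 for all genes. A fit that gave each library a weight by its quality set WT replicate 1 at 0.0837 and called 1768 genes (10.5% of the genes tested, 4.45% higher), among them 13 members, all higher: PSAD1, PSAD2, PSAE1, PSAE2, PSAF, PSAG, PSAH2, PSAK, PSAL, PSAN, PSAO, PSBQ2 and PSBY. The other weights were 0.427, 0.537 and 3.53 for overexpressor replicates 1, 2 and 3, and 6.94 and 2.13 for WT replicates 2 and 3. All weights were estimated from the spread in these same data, and which libraries the calls rest on was not tested.

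**Figure D2:**
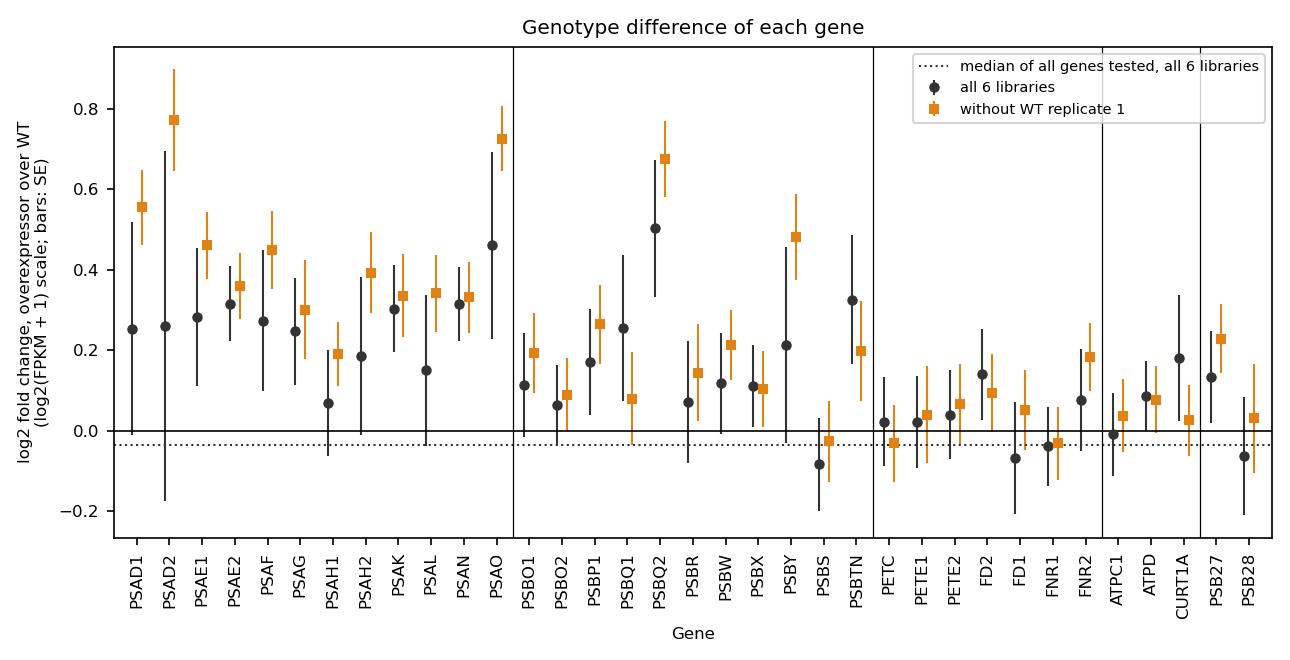
Log2 fold change, overexpressor over WT, of each gene on the log2(FPKM + 1) scale with its SE from limma, over all 6 libraries (circles) and without WT replicate 1 (squares); the dotted line is the median of all genes tested. Leaving out WT replicate 1 moved the photosystem I genes up and narrowed their errors, with PSAD2 at 0.26 over all libraries and 0.77 without it, while most of the carriers stayed near 0.

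Among the stromal subunits of photosystem I, the PsaD and PsaE proteins form the docking site of ferredoxin, and each is encoded by a pair of genes. PSAD1 (AT4G02770, chr4:1229031-1230164 of TAIR10.1, minus strand) had 751, 831 and 782 FPKM in overexpressor replicates 1, 2 and 3, and 1003, 551 and 520.2 FPKM in WT replicates 1, 2 and 3. The overexpressor values lay close together, between WT replicate 1 above and the other WT plants below, so the groups overlapped. Means were 788 ± 40.3 FPKM in the overexpressor and 691 ± 270.4 FPKM in WT (SD, n = 3 each), and the log2 fold change of 0.25 (SE 0.27) had a limma adjusted p of 0.811. Without WT replicate 1 it was 0.55 (adjusted p 0.12 in limma).

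PSAD2 (AT1G03130, chr1:753307-754262, minus strand), the weaker copy, had 285, 363 and 288 FPKM in the overexpressor and 527, 179 and 184 FPKM in WT. As for PSAD1, its overexpressor values lay between WT replicate 1 above and the other WT plants below, with wider steps. WT replicate 1 stood at 2.91 times the mean of the other WT plants, against 1.87 times for PSAD1. The log2 fold change of PSAD2 was 0.26 (SE 0.43, limma adjusted p 0.867) over all libraries and 0.77 (adjusted p 0.111) without WT replicate 1. The stretch of the 2 coding sequences that is most alike is given with capitals at the bases that differ. Over the whole alignment 88.0% of the coding bases were identical. These stretches lie at chr4:1229355-1229444 and chr1:753636-753725 of TAIR10.1, both on the minus strand.
PSAD1: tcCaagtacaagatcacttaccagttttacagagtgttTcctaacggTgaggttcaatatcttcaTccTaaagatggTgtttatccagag
PSAD2: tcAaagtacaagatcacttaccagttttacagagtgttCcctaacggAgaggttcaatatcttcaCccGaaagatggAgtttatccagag

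PSAE1 (AT4G28750, chr4:14202758-14204061, minus strand) had 716, 734 and 699 FPKM in the overexpressor and 754, 528 and 513 FPKM in WT. Again the overexpressor plants stood just under WT replicate 1 and well above the other WT plants. PSAE1 had a log2 fold change of 0.28 with an SE of 0.17 (limma adjusted p 0.805), and of 0.46 without WT replicate 1. PSAE2 (AT2G20260, chr2:8736734-8737767, plus strand) had 421, 416 and 441 FPKM in the overexpressor and 364, 323 and 341 FPKM in WT, and here no overexpressor plant reached down to a WT plant. Its means were 426 ± 13.4 FPKM in the overexpressor and 343 ± 20.3 FPKM in WT (SD, n = 3 each), and its log2 fold change of 0.32 (SE 0.09) had the smallest unadjusted p of the members, 0.0145, with a limma adjusted p of 0.805. The copies were less alike than those of PSAD, with 79.5% of aligned coding bases identical. Their most alike stretches, at chr4:14202963-14203052 on the minus strand and chr2:8737546-8737635 on the plus strand, differ at 10 of 90 bases, again with capitals at the bases that differ.
PSAE1: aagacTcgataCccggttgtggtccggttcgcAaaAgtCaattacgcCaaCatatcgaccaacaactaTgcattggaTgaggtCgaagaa
PSAE2: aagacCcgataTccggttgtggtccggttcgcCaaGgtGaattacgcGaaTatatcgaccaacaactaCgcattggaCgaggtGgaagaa

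On the lumenal side, PsaF helps plastocyanin to dock and PsaN takes part in the same interaction. PSAF (AT1G31330, chr1:11214676-11216141, minus strand) had 1012, 1027 and 929 FPKM in the overexpressor and 1042, 744 and 705 FPKM in WT. The overexpressor plants lay under WT replicate 1 and above the other WT plants, as for PSAD1 and PSAE1. The log2 fold change of PSAF was 0.27 (SE 0.18, limma adjusted p 0.805), and 0.45 without WT replicate 1. PSAN (AT5G64040, chr5:25628521-25629708, minus strand) had 538, 482 and 495 FPKM in the overexpressor and 415, 399.5 and 402 FPKM in WT. The WT plants were nearly equal, WT replicate 1 among them, and all lay under the overexpressor plants. With means of 505 ± 29.2 FPKM in the overexpressor and 406 ± 8.39 FPKM in WT (SD, n = 3 each), its log2 fold change of 0.31 (SE 0.09) barely moved when WT replicate 1 was left out, to 0.33, and the limma adjusted p was 0.805 with all 6 libraries.

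Of the membrane subunits, PsaG and PsaK flank the core, and PsaH, PsaL and PsaO form the side to which mobile antenna binds in state transitions. PSAL (AT4G12800, chr4:7521257-7522761, plus strand), the most abundant of them, had 1363, 1442 and 1366 FPKM in the overexpressor and 1631, 1107 and 1088 FPKM in WT. WT replicate 1 was clearly the highest plant and the overexpressor again in between, and the log2 fold change was 0.15 (SE 0.19; adjusted p in limma 0.834). PSAK (AT1G30380, chr1:10722183-10723247, plus strand) had 588, 498 and 517 FPKM in the overexpressor and 452, 412 and 433 FPKM in WT, without overlap. Its log2 fold change was 0.30 (SE 0.11, limma adjusted p 0.805) over all libraries and 0.34 without WT replicate 1.

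PSAO showed one of the widest gaps. It had 570.0, 559.9 and 552 FPKM in the overexpressor and 588, 329.6 and 348 FPKM in WT: 4 plants at almost one level and WT replicates 2 and 3 far below. The log2 fold change of 0.46 (SE 0.23, adjusted p 0.805 in limma) became 0.73 without WT replicate 1, with an adjusted p of 0.0528, just short of the threshold of 0.05. PSAO was called by the weighted fit (adjusted p 0.00408). A limma voom fit on reads recovered from the FPKM values, with WT replicate 1 left out, an alternative chosen after seeing the data, also called PSAO (adjusted p 0.0400), as the one member among 32 genes (0.19% of the genes tested, 0.136% higher). The same fit on all 6 libraries called 1 gene (0.00593%) and 0 members. PSAG had 1404, 1143 and 1358 FPKM in the overexpressor and 1176, 1058 and 1049 FPKM in WT, where overexpressor replicate 2 lay under WT replicate 1. The log2 fold change of PSAG was 0.25 (SE 0.13).

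The subunit PsaH is encoded by a pair of genes. PSAH1 had 436, 426 and 407 FPKM in the overexpressor and 478, 372 and 369 FPKM in WT, and PSAH2 had 417, 409 and 353 FPKM in the overexpressor and 459.7, 294 and 303 FPKM in WT. WT replicate 1 was highest in both. Their log2 fold changes were 0.07 and 0.19 over all libraries and 0.19 and 0.39 without WT replicate 1, and PSAH1 was the one photosystem I gene that the weighted fit did not call. Taking the 12 photosystem I genes as a sum, they made up 1.46, 1.42 and 1.41% of all FPKM in the overexpressor and 1.52, 1.10 and 1.09% in WT. Their median log2 fold change was 0.27, and 0.38 without WT replicate 1, higher than in the other roles.

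Several of these loci share exonic sequence with another gene, on the other strand for every partner whose level is given below. The sources used here do not give whether reads were counted by strand. This overlap reached 61.4% of the exons of PSAG, 53.3% of PSAH1, 34.1% of PSAE1, 24.8% of PSAH2, 12.7% of FNR1 and 10.4% of PSAE2. The partner of PSAG stood at 0.328 to 0.876 FPKM and that of PSAH2 at 0 to 0.0422 FPKM, levels far below those of the members. Higher were AT4G28740 beside PSAE1, with 48.0 to 89.0 FPKM, AT2G20270 beside PSAE2, with 27.6 to 36.4 FPKM, and AT5G66180 beside FNR1, with 16.4 to 28.3 FPKM. The partner of PSAH1, AT3G16130, is not among the genes with FPKM values, and its strand is not given here. No member had another locus outside its own position with 95% identity over 50% of its length.

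Photosystem II genes had smaller differences, by the median. PsbO, the protein that holds the manganese cluster in place, is encoded by 2 genes, and PSBO1 (AT5G66570, chr5:26568572-26570461, plus strand) had 1716, 1783 and 1697 FPKM in the overexpressor and 1788, 1545 and 1487 FPKM in WT. The overexpressor plants lay above WT replicates 2 and 3 and below WT replicate 1, and the log2 fold change of 0.11 had an SE of 0.13 (limma adjusted p 0.822). PSBO2 had 721, 684 and 757 FPKM in the overexpressor and 714, 679.9 and 674 FPKM in WT, a log2 fold change of 0.06 with overlapping groups. PSBP1, whose protein holds calcium and chloride at the cluster, had 1292, 1389 and 1268 FPKM in the overexpressor and 1332, 1107 and 1084 FPKM in WT, with WT replicate 1 inside the overexpressor range.

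PsbQ, the third extrinsic protein, had the copies whose ratio varied most between plants. PSBQ2 (AT4G05180, chr4:2671523-2673243, minus strand) had 453, 521 and 509 FPKM in the overexpressor and 442, 308 and 309 FPKM in WT. Every overexpressor plant was above every WT plant, though overexpressor replicate 1 and WT replicate 1 lay close. Means were 494 ± 36.0 FPKM in the overexpressor and 353 ± 76.9 FPKM in WT (SD, n = 3 each), and the log2 fold change of 0.50 (SE 0.17) was the largest of the members, with a limma adjusted p of 0.805. It was 0.67 (adjusted p 0.079) without WT replicate 1.

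PSBQ1 (AT4G21280, chr4:11334352-11335815, plus strand) had another order in the WT plants: it had 550.0, 441 and 482 FPKM in the overexpressor and 321, 461 and 464 FPKM in WT. Here WT replicate 1 was the lowest library and WT replicates 2 and 3 lay within the overexpressor range. The log2 fold change of 0.25 (SE 0.18) was 0.08 without WT replicate 1. The copies share 80.0% of aligned coding bases, and their most alike stretches, at chr4:11335100-11335189 on the plus strand and chr4:2672541-2672630 on the minus strand, differ at the 6 bases in capitals.
PSBQ1: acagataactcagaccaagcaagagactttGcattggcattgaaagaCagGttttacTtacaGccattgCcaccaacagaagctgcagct
PSBQ2: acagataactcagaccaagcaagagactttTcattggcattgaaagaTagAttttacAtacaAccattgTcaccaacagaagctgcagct

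PSBR (AT1G79040, chr1:29735952-29737009, plus strand), for a small subunit that helps PsbP and PsbQ to bind, was the most abundant member, ranking between the second and the fifth of all genes. It had 4405, 4402 and 4695 FPKM in the overexpressor and 4736, 4057 and 4089 FPKM in WT, with WT replicate 1 highest by a narrow margin, and its log2 fold change was 0.07 (SE 0.15; adjusted p in limma 0.896). PSBTN, for a small lumenal subunit, had 726, 591 and 582 FPKM in the overexpressor and 421, 559.5 and 539 FPKM in WT. WT replicate 1 was the lowest and overexpressor replicate 1 the highest, with no overlap of the groups, and the log2 fold change of 0.33 (SE 0.16, adjusted p 0.805 in limma) was 0.20 without WT replicate 1.

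The other small subunits ranged from PSBY to PSBS. PSBY, for a membrane subunit beside cytochrome b559, had 553, 542 and 465 FPKM in the overexpressor and 649, 379.7 and 363 FPKM in WT, with WT replicate 1 highest as in 8 of 12 photosystem I genes, and a log2 fold change of 0.21 and of 0.48 without WT replicate 1. PSBW, for a subunit that steadies the complexes of photosystem II with its antenna, had 1037, 1030.2 and 1025 FPKM in the overexpressor and 1086, 882 and 895 FPKM in WT. PSBX, for a small membrane subunit, had 1066, 974 and 1035 FPKM in the overexpressor and 938, 951 and 956 FPKM in WT, where the groups did not overlap. PSBS, the sensor protein of heat dissipation under strong light, had the lowest log2 fold change of the members, -0.08 (SE 0.11), at 684, 742 and 641 FPKM in the overexpressor and 790.3, 716 and 685 FPKM in WT, with overlap.

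The assembly factors were the scarcest of the photosystem II genes. PSB27, for a lumenal protein of assembly and repair, had 166, 171 and 150.3 FPKM in the overexpressor and 169, 139 and 137 FPKM in WT, and a log2 fold change of 0.13 with an SE of 0.12 (limma adjusted p 0.805). PSB28, another assembly factor, had 93.0, 90.7 and 69.9 FPKM in the overexpressor and 99.9, 80.9 and 83.3 FPKM in WT, where overexpressor replicate 3 was the lowest plant. Over the 13 photosystem II genes the median log2 fold change was 0.12, and 0.19 without WT replicate 1. Their sum was 2.31, 2.28 and 2.30% of all FPKM in the overexpressor and 2.30, 2.08 and 2.05% in WT.

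Electron carriers differed least of the larger groups, by the median. FD2 (AT1G60950, chr1:22444307-22445291, plus strand), the main leaf ferredoxin, had 1451, 1476 and 1405 FPKM in the overexpressor and 1229.5, 1394 and 1314 FPKM in WT, with no overlap and WT replicate 1 lowest. Its log2 fold change was 0.14 (SE 0.11, limma adjusted p 0.805), and 0.09 without WT replicate 1. FD1, the minor leaf ferredoxin, had 337, 311 and 283 FPKM in the overexpressor and 383, 303 and 294 FPKM in WT, where overexpressor replicate 3 was the lowest and WT replicate 1 the highest plant.

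Plastocyanin transcript came almost wholly from PETE2, at 1341, 1348 and 1233 FPKM in the overexpressor and 1316, 1262 and 1236 FPKM in WT. PETE1, its minor copy, had 96.9, 124 and 100.2 FPKM in the overexpressor and 108, 101 and 106 FPKM in WT, and the groups overlapped for both copies. PETC, the Rieske iron-sulphur protein of the cytochrome b6f complex, had 881, 791 and 848 FPKM in the overexpressor and 767, 873 and 844 FPKM in WT, and its log2 fold change of 0.02 had an SE of 0.11.

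The ferredoxin-NADP reductases ended the chain. FNR1 had 713, 773 and 745 FPKM in the overexpressor and 773, 779 and 741 FPKM in WT, and FNR2 had 637, 654 and 664 FPKM in the overexpressor and 717, 586 and 563 FPKM in WT. WT replicate 1 was highest for FNR2, with WT replicates 2 and 3 lowest, and the groups overlapped for both genes. Their log2 fold changes were -0.04 (SE 0.10) and 0.08 (SE 0.13). The median of the 7 carriers was 0.02, and 0.05 without WT replicate 1, and they summed to 0.935, 0.935 and 0.908% of all FPKM in the overexpressor and 0.903, 0.927 and 0.888% in WT.

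ATPC1, the gamma subunit that turns inside the ATP synthase, had 694, 738 and 684 FPKM in the overexpressor and 756, 706 and 669 FPKM in WT, and its log2 fold change was -0.01 with an SE of 0.10 (limma adjusted p 0.981). ATPD, the delta subunit, had 379, 369.8 and 345 FPKM in the overexpressor and 339, 350.4 and 340.4 FPKM in WT. CURT1A had 505, 458 and 503 FPKM in the overexpressor and 348, 485 and 474 FPKM in WT, where WT replicate 1 was far the lowest; its log2 fold change of 0.18 (SE 0.16, adjusted p 0.805 in limma) was 0.03 without that plant. In these 3 genes the overexpressor plants were not all above WT replicates 2 and 3.

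Gene groups that were not members set the scale. The 20 antenna genes had a median log2 fold change of 0.72, and 1.19 without WT replicate 1. Over all 6 libraries 0 of the 20 passed the limma threshold, with a smallest adjusted p of 0.0702. Without WT replicate 1, 10 passed, all higher in the overexpressor. In that setting 0.136% of all genes tested passed, 0.0948% as higher. The antenna genes took 2.24, 2.59 and 2.37% of all FPKM in the overexpressor and 2.84, 1.24 and 1.25% in WT, so WT replicates 2 and 3 stood lowest as in photosystem I. CAB1, their most abundant gene, had 3227, 3829 and 3202 FPKM in the overexpressor and 3001, 1556 and 1586 FPKM in WT. The 18 carbon fixation genes had a median of 0.00, and -0.06 without WT replicate 1, and their order was another: 5.54, 5.21 and 5.03% in the overexpressor and 4.43, 5.74 and 5.60% in WT. RBCS1A, a small subunit of Rubisco and the most abundant of them, had 11041, 10219 and 8671 FPKM in the overexpressor and 8655, 10046 and 10107 FPKM in WT.

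A further 57 nuclear genes of the pathway that are no members, for assembly and repair of the photosystems, kinases, cyclic electron flow, further cytochrome b6f and ferredoxin proteins, ATP synthase and CURT1 proteins, had 0 genes past the limma threshold over all libraries. Their log2 fold change was above 0 in 17 of 57, with a median of -0.06, and in 33 of 57 without WT replicate 1, with a median of 0.01. The most abundant were ATPG, an ATP synthase subunit, with 907, 896 and 896 FPKM in the overexpressor and 922, 919 and 898 FPKM in WT, then PETM of the cytochrome b6f complex and CURT1B. PETM had 786, 742 and 763 FPKM in the overexpressor and 758, 725 and 728 FPKM in WT, and CURT1B had 544, 494 and 515 FPKM in the overexpressor and 464, 499 and 489 FPKM in WT. The groups overlapped in all 3.

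The smallest unadjusted p of the further genes was that of FTSH8, a protease subunit that clears damaged photosystem II reaction centre protein, with 72.5, 77.5 and 70.8 FPKM in the overexpressor and 90.8, 84.7 and 82.2 FPKM in WT. Its log2 fold change was -0.22 with no overlap and a limma adjusted p of 0.805. FTSH1, a like subunit, had 122, 126 and 122 FPKM in the overexpressor and 142, 139.8 and 132 FPKM in WT, and FD3, a ferredoxin of non-green tissue, 43.0, 39.5 and 39.3 FPKM in the overexpressor and 62.5, 42.6 and 46.4 FPKM in WT. The weighted fit called 2 of the 57, FTSH8 as lower (adjusted p 0.0258) and CURT1C as higher (adjusted p 0.0253), where it called 10.5% of all genes tested.

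The 8 pairs of duplicate genes gave a measure that does not depend on the scaling between libraries, the share of the first copy in the sum of both. It differed between subunits and, in some pairs, between plants. PETE1 gave 6.74, 8.42 and 7.51% of plastocyanin transcript in the overexpressor and 7.56, 7.43 and 7.87% in WT, and FD1 gave 18.9, 17.4 and 16.7% of the pair in the overexpressor and 23.7, 17.9 and 18.3% in WT. PSBO1 gave 70.4, 72.3 and 69.2% of the pair in the overexpressor and 71.5, 69.4 and 68.8% in WT. The PSAD1 share was 72.5, 69.6 and 73.1% in the overexpressor and 65.6, 75.5 and 73.9% in WT, lowest in WT replicate 1.

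PSAE1 made up 63.0, 63.8 and 61.3% of its pair in the overexpressor and 67.5, 62.0 and 60.1% in WT. PSAH1 held 51.1, 51.0 and 53.5% in the overexpressor and 51.0, 55.8 and 54.9% in WT, and FNR1 held 52.8, 54.2 and 52.9% in the overexpressor and 51.9, 57.1 and 56.8% in WT. In both of these pairs WT replicates 2 and 3 had the highest shares. The PSBQ1 share varied most, at 54.8, 45.8 and 48.6% in the overexpressor and 42.1, 60.0 and 60.0% in WT, with WT replicate 1 at the bottom and the other WT plants at the top. The log2 ratio of the copies was compared in each pair by a two-sided exact permutation test, which cannot go below 0.1 with 3 against 3 plants. The exact p ran from 0.4 to 1, and from 0.96 to 1 after Benjamini-Hochberg adjustment over the 8 pairs.

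**Figure D3:**
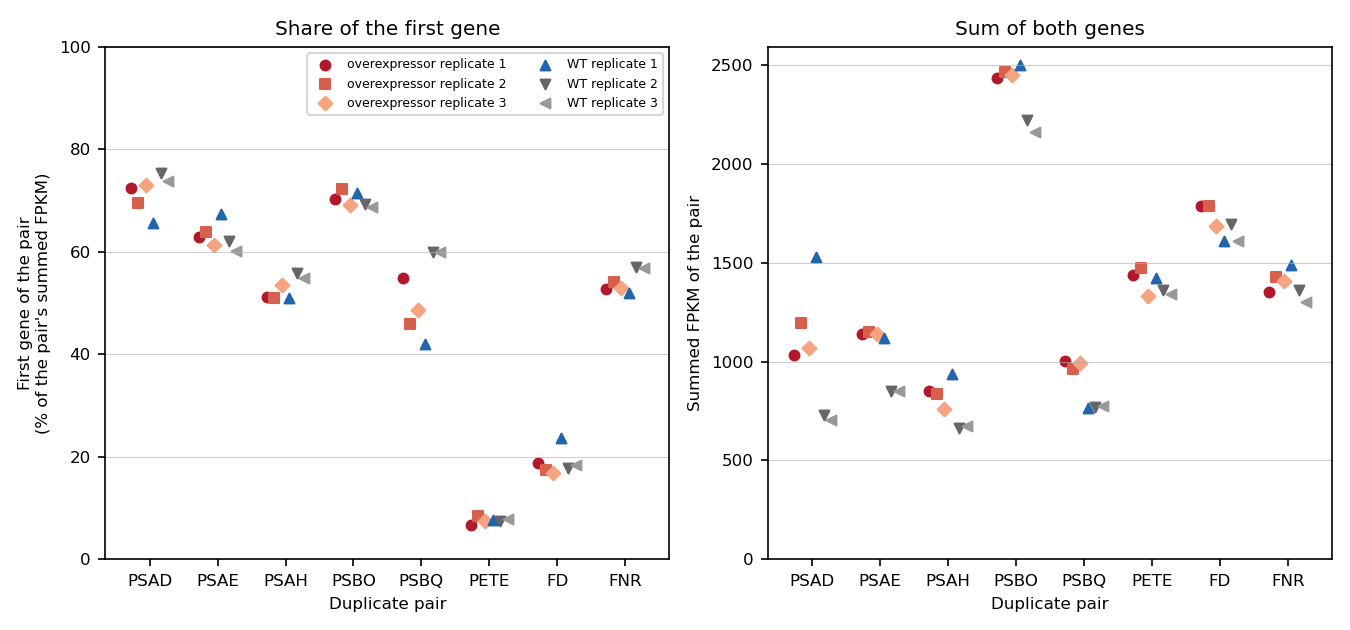
Share of the first gene of each duplicate pair in the pair's summed FPKM (left, percent) and the summed FPKM itself (right), 1 symbol a library, overexpressor left of WT. The PSBQ1 share spread from 42.1 to 60.0% in WT, while the PSBQ sum was 763 to 773 FPKM in WT and 961 to 1003 FPKM in the overexpressor.

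The sums of the pairs were added after the values were seen. Both PSBQ genes together had 1003, 961 and 991 FPKM in the overexpressor and 763, 770 and 773 FPKM in WT. The WT plants, WT replicate 1 included, were almost equal although the copies traded places among them, and every overexpressor plant stood clear above. Means were 985 ± 21.7 FPKM in the overexpressor and 768 ± 5.15 FPKM in WT (SD, n = 3 each), a difference of 0.36 on the log2 scale and 0.35 without WT replicate 1. The two-sided exact permutation test gave p = 0.1, the smallest it can give, and 0.4 after Benjamini-Hochberg adjustment over the 8 pairs.

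In the PSAE pair the sum was 1138, 1150.4 and 1140.1 FPKM in the overexpressor and 1118, 852 and 853 FPKM in WT, so the groups did not overlap, but by a narrow margin to WT replicate 1 (log2 difference 0.29, exact permutation p = 0.1, adjusted 0.4). The PSAD sum was 1036, 1194 and 1069 FPKM in the overexpressor and 1530.3, 729.9 and 704 FPKM in WT, with WT replicate 1 far above every other plant. In the remaining 5 pairs the sums overlapped between the genotypes and the exact permutation p was 0.2 to 1.

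Sequences just upstream of the genes were searched for short motifs named in work on light- and clock-regulated genes. The windows were the 250 bases before the annotated start of each gene in TAIR10.1, and both strands were read. The I-box GATAAG was in 8 of 35 members (22.9%) and in 12.4% of the windows of 23203 protein-coding genes. The G-box CACGTG was in 7 of 35 (20%), against 7.13%, and the short evening element AATATCT in 4 of 35 (11.4%), against 10.1%. By role the I-box was in 4 of 12 photosystem I genes and 1 of 13 photosystem II genes, and the G-box in 2 of 12 and 4 of 13. A match is a description of the letters only, and other genes lie within some of the windows.

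Windows of PSAD1, PSAF and PSBQ2 are shown as examples that hold a motif, chosen after the matches were seen, from genes higher in the overexpressor than in WT replicates 2 and 3 and with no other gene within the window. Of the other members of that kind, PSAK holds an I-box, and PSAH1, PSAL, PSBO2, PSBR, PSBY, FD2, FNR2 and PSB27 hold none of the motifs. They are written 5′ to 3′ towards the gene, all on the minus strand, at chr4:1230165-1230414, chr1:11216142-11216391 and chr4:2673244-2673493 of TAIR10.1. Capitals mark a match to the I-box, the G-box or the short evening element on either strand. PSBQ2 holds all of the motifs, with 2 G-boxes and an I-box 15 bases from the gene start, PSAF an I-box and an evening element read on the other strand, and PSAD1 a single I-box. Of the pair, the PSBQ1 window has 2 G-boxes and neither of the other motifs.
PSAD1 upstream: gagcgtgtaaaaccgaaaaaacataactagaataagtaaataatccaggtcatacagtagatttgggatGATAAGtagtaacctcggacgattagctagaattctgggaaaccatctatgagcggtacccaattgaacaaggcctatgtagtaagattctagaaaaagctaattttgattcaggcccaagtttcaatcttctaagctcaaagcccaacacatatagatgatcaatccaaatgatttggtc
PSAF upstream: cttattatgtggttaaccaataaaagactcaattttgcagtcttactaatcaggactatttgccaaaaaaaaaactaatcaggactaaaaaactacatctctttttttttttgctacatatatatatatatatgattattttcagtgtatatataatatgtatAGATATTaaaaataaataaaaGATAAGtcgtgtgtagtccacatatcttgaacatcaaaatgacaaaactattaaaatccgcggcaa
PSBQ2 upstream: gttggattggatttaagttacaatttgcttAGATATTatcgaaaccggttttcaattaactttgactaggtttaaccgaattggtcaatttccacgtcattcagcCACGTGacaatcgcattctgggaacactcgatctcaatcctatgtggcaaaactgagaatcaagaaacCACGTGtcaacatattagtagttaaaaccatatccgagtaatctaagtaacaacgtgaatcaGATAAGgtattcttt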

How the data were processed

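RNA of 3 overexpressor and 3 WT stems was sequenced. Library preparation used a NEBNext kit, per the labels' protocols. HISAT2 is named in the submitters' processing notes. Not given in the sources used here are the aligner's version, the counter, the build and annotation, and whether counting used strand. The deposited table holds the authors' FPKM values of 24434 genes, with 0 columns that matched no sample. Multiplying FPKM by each gene's total exon length in TAIR10.1 (RefSeq) gave whole reads for 100% of the values, within 0.1 reads, so coordinates are those of TAIR10.1; depth was 44597288 to 45642240 assigned reads.

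Values of log2(FPKM + 1) were tested with limma (3.58.1; R 4.3.3), trend included, for 16870 genes whose mean reached 1 FPKM, two-sided, with Benjamini-Hochberg adjustment over all genes tested and a threshold of 0.05. Fold changes are overexpressor over WT on that scale, which understates changes of low genes. With separate plants as samples, p-values measure the spread between plants and library preparation together. Ratios of duplicate genes were compared with exact permutation tests that listed every split of the plants (Python 3.11.15). Limma voom was run on the recovered reads as an alternative, beside other pseudocounts, filters, scalings, sample weights, a replicate block and each library left out. The procedure was tested on simulated data with the same spread setting for all genes and no library standing apart, so that test does not measure its power in these data.

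The members and lists were chosen with earlier results of these data known. All members are named; values in every sample follow for both copies of each pair, for the most abundant member and that of smallest p in each role, and for the others of the 35. Of the further pathway genes, those past the threshold, the 3 of highest mean and the 3 of smallest p are named, and of each other list the most abundant, with GI and CESA4.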

Additional observations from a re-analysis of the deposited data

How the results depend on the processing

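The count of all genes called by limma, 2 over the 6 libraries, was 4 without a filter, 1 to 23 with one library left out (23 without WT replicate 1), 0 with the replicate block, 1768 with sample quality weights, 1 with voom on recovered reads, and 32 with voom without WT replicate 1, a fit chosen after seeing the data. Members called, 0 in the main test, were 13 with weights and 1 with voom without WT replicate 1, and further pathway genes 2 with weights. Members whose groups do not overlap, 7, numbered 7 to 24 with one library left out. Over all 6 libraries 4.76% of all genes tested lay above WT and 9.69% below. The 24 were found without WT replicate 1 and all lay above, where 12.3% of all genes lay above and 19.0% below. Without overexpressor replicate 2 there were 13, and the share of all genes in that setting is not given here. The cause of these changes was not tested. The labels do not state that the replicate numbers pair the plants. Deviations of same-numbered plants from their group means correlated at -0.60, -0.59 and 0.03 over genes, and those of differently numbered plants at -0.61 to 0.62. Deviations within a group of 3 depend on each other, so these values cannot decide whether plants were paired. The block left 0 members called. Of 560 values of the members' log2 fold changes under 16 settings, 528 kept direction and side of the threshold, 14 passed it and 18 changed sign, in 7 members. Signs changed for FNR1 (0.0051) and ATPC1 (0.036) with median-ratio scaling, for PETC with weights (-0.035), and for PETC (-0.032), FD1 (0.051), ATPC1 (0.037) and PSB28 (0.030) with voom without WT replicate 1. Others changed sign with one library left out, when the log2 fold change was -0.0053 to 0.77 for PSAD2, -0.032 to 0.064 for PETC, -0.088 to 0.088 for PETE1, -0.14 to 0.051 for FD1, -0.052 to 0.037 for ATPC1 and -0.14 to 0.066 for PSB28. The log2 ratio of duplicate copies was then -0.22 to 0.13 for PSAD, -0.13 to 0.10 for PSAE, -0.0089 to 0.10 for PSBO and -0.11 to 0.068 for PETE.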

Other observations

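The plastid genome encodes the partners of the proteins described above, and the table holds 32 of its psa, psb, pet and atp genes, of which 28 passed the filter of 1 FPKM. The list was drawn up after the table was opened, and whether the libraries were selected for polyadenylated RNA, which plastid transcripts mostly lack, is not given in the sources used here. In limma 0 of the 28 passed the threshold over all libraries, where 0.0119% of all genes did. The log2 fold change was above 0 in 21 of 28, against 42.3% of all genes, with a median of 0.11, and of 0.17 without WT replicate 1. All overexpressor values lay above all WT values in 2 of 28, where 4.76% of all genes did so. Levels were low, the 32 genes summing to 413, 370.3 and 455 FPKM in the overexpressor and to 366, 375 and 336 FPKM in WT. The most abundant, psaJ for a small membrane subunit of photosystem I, had 117, 131 and 152 FPKM in the overexpressor and 104, 114 and 93.9 FPKM in WT. Its genotypes did not overlap, by a narrow margin to WT replicate 2, and it had a log2 fold change of 0.35 and a limma adjusted p of 0.805. The highest psaJ value was in overexpressor replicate 3.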
